A study of Gallus gallus with 36 samples.

Results

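The genes described here copy the DNA and divide the cell, and they were taken by name: helicase subunits (MCM), origin recognition proteins (ORC), replicative polymerases, clamp and clamp loader (POLA, POLD, POLE, PCNA, RFC), GINS, cyclins, genes named CDC or CDK, centromere proteins (CENP), Aurora kinases, BUB1 proteins, the mitotic motors KIF11, KIF20A and KIF23, and TOP2A and MKI67. The names took 142 of 23352 transcript rows, which belong to 99 of 13483 gene symbols. Each row is 1 Ensembl transcript, 69 symbols had a single row and 30 had several, with 9 rows for CENPF. The shared names do not mean a shared job: 15 rows named CDC or MCM, such as CDC42, and 17 rows named CDK, such as CDK14 and CDK17, encode proteins that mostly act in signalling, transcription and splicing, and they are described apart from the rest. AURKAIP1, which the AURK names also took, is not an Aurora kinase, and its 3 rows were counted with the mitosis group. RNA was sequenced from pineal glands and retinas of chickens obtained as 1-day-old chicks. The birds saw 9 cycles of 12 h light and 12 h dark and stayed dark from day 10. Sampling ran from the start of the subjective day at circadian time (CT) 0, 4, 8, 12, 16 and 20. A pineal library came from 3 pooled glands and a retina library from a single retina, with 3 libraries per tissue and time and 36 in all, taken to find transcripts that follow a daily rhythm.

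A cell that is about to divide first licenses its replication origins: the origin recognition complex loads the MCM helicase ring, which is later switched on by CDC7, CDC45 and GINS so that the polymerases and the sliding clamp PCNA can copy the strands. Cyclins bound to cyclin-dependent kinases set the order of these steps, and genes of DNA synthesis are typically transcribed before those of mitosis, which build the kinetochore, separate the sister chromatids and cleave the cell. Nerve cells of a hatched chick's central retina no longer divide, while vessel, connective tissue and immune cells can. The roles given below are those known from human and yeast proteins.

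Total counts ran from 6583163 to 9434608 per pineal library and from 4994388 to 8122277 per retina library. The labelled tissues carried their markers: the summed level of 4 pinealocyte genes had a lowest, median and highest value of 9312, 26510 and 34250 CPM (counts scaled to library size) in the pineal gland, against 264.1, 328.1 and 424.9 CPM in the retina, and that of 3 photoreceptor genes was 49.7, 98.3 and 284.9 CPM in the pineal gland, against 1450, 2035 and 3913 CPM in the retina. Choroid plexus markers, led by TTR, set 3 pineal pools apart (CT12 replicates 1 and 3 and CT20 replicate 1), whose TTR level was 987 to 1526 CPM, and each result was also computed without them. That run keeps only replicate 2 of CT12. For a call lost in it, choroid plexus content and the fewer libraries at CT12 cannot be told apart. The labels do not state that the 3 retinas of a group are from different birds. The p-values therefore reflect the spread among these libraries, and part of it may be technical. Unless stated otherwise, levels are mean CPM ± SD of the 3 libraries of a time. Rhythm was tested by fitting a 24 h curve with edgeR's quasi-likelihood F test, with p-values adjusted over all transcripts, and a call is an adjusted p under 0.05. Amplitudes run from mean to peak of the curve, in log2 units, with SE.

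In the pineal gland the helicase genes MCM2, MCM3, MCM4 and MCM5 were highest in the subjective afternoon and evening and lowest late in the night, while several mitotic and centromere genes were lowest in the subjective morning or afternoon and highest at CT16 or CT20. Of the 142 rows, 130 passed the filter on low counts in the pineal gland, and 25 of these (19.2%) followed a 24 h curve, where 21.1% of all 16070 tested transcripts did. That share lies near the background. The 25 rows carry 23 symbols. The fitted peaks of 7 of the 25 lay nearest CT8 (28%), where 7.72% of all rhythmic pineal transcripts had theirs. These 7 are not all replication genes. Besides MCM2 to MCM5 they are CDC5L and CDC42, which lie outside replication and mitosis, and a CENPF row whose call is uncertain. A further 8 lay nearest CT16 (32%, against 25.4% of all), 5 nearest CT20 (20%, against 10.9%), 3 nearest CT0 (12%, against 13.6%), 2 nearest CT4 (8%, against 21.6%) and 0 nearest CT12 (against 20.8%). The median peak-to-trough ratio of the 25 rows was 1.45, and that of all rhythmic pineal transcripts was 1.43.

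**Figure D1:**
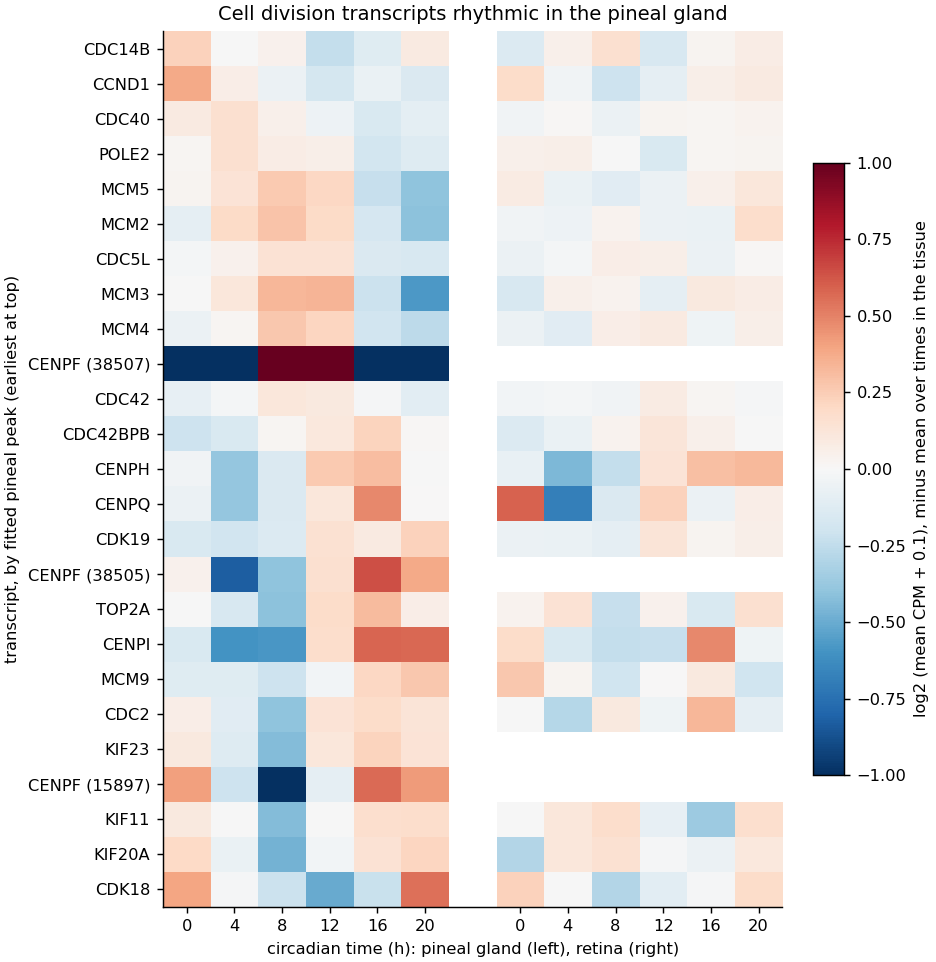
Mean level of the 25 transcripts rhythmic in the pineal gland at 6 circadian times in the pineal gland (left) and the retina (right), as log2 (mean CPM + 0.1) minus the mean over the times in that tissue, ordered by the fitted pineal peak; blank rows were not tested in the retina, and a number after CENPF gives the last digits of the transcript identifier. MCM2, MCM3, MCM4 and MCM5 are high at CT8 and CT12 and low at CT20 in the pineal gland, and TOP2A, CDC2, KIF11, KIF20A and KIF23 are low at CT8.

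Licensing genes, with 14 rows of these names, gave 4 rhythmic rows of 13 tested in the pineal gland (30.8%, against 21.1% of all transcripts). The retina gave 0 of 13 (against 6.29% of all). All 4 encode subunits of the MCM ring, which unwinds DNA ahead of the polymerases, and their fitted peaks lay between CT7.3 and CT8.3. MCM2 (ENSGALT00000009723, chromosome 12, 9995146 to 10006470 in the deposited tables) had 35.4, 43.4 and 43.9 CPM at CT0, 47.3, 47.5 and 54.7 at CT4, 50.3, 53.8 and 55.8 at CT8, 44.0, 55.4 and 50.5 at CT12, 41.1, 41.5 and 33.6 at CT16 and 30.4, 35.6 and 32.3 at CT20 in the pineal libraries. In the retina the 18 values had a lowest of 8.66, a median of 10.6 and a highest of 13.2 CPM. The pineal values at CT8 all lay above those at CT16 and CT20, and no retina value reached any pineal value. The amplitude was 0.34 ± 0.04 with a peak at CT7.8 ± 0.5 h (edgeR, adjusted p = 6.5e-05), and the curve differed between the tissues (interaction of tissue and 24 h curve, edgeR, adjusted p = 0.00301).

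MCM3 (ENSGALT00000026909, chromosome 3, 110345698 to 110355155) had the largest swing of the 4. Its pineal values were 26.9, 30.1 and 27.5 CPM at CT0, 31.4, 30.2 and 30.1 at CT4, 37.5, 34.6 and 34.6 at CT8, 34.1, 37.8 and 35.4 at CT12, 25.3, 24.1 and 23.3 at CT16 and 18.9, 17.0 and 21.0 at CT20. Every library of CT8 and CT12 lay above every library of the other 4 times, and the values of CT20 lay below all others. In the retina MCM3 lay between 15.1 ± 3.81 CPM (CT0) and 17.98 ± 1.99 CPM (CT16), so that at CT20 the tissues overlapped, with 17.0 to 21.0 CPM in the pineal gland and 16.2 to 20.5 CPM in the retina. The pineal amplitude was 0.41 ± 0.05, a 1.77-fold range (edgeR, adjusted p = 7.4e-05), and the difference between the tissues passed (edgeR, adjusted p = 0.0126).

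MCM4 (ENSGALT00000021064, chromosome 2) reached 66.3 ± 5.60 CPM at CT8 and had its lowest pineal mean, 45.9 ± 3.29 CPM, at CT20. Its retina means stayed between 26.3 ± 1.23 CPM at CT4 and 30.4 ± 1.03 CPM at CT12. The pineal rhythm had an adjusted p of 2.0e-04 and the tissue difference in rhythm one of 0.00713 (edgeR). MCM5 (ENSGALT00000020490, chromosome 1) had 34.3, 39.1 and 38.1 CPM at CT8 in the pineal gland and 20.3, 23.3 and 26.7 CPM at CT20. Its replicates spread widely at CT4, from 27.1 to 40.9 CPM. In the retina MCM5 was 19.1 ± 1.55 CPM at CT8 and 22.3 ± 1.89 CPM at CT20, and the tissues again overlapped at CT20. Its pineal rhythm (edgeR, adjusted p = 0.00729) and the tissue difference in rhythm (edgeR, adjusted p = 1.0e-03) both passed, and the pineal and difference calls of MCM2, MCM3, MCM4 and MCM5 held under every alternative run and without any 1 library.

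MCM6 has 2 transcript rows, neither of which was called alone (edgeR, adjusted p = 0.526 and 0.718). The split of reads between transcripts of a gene is an estimate, so the counts of each gene were also summed before the fit. Summed, MCM6 had pineal values of 102.2, 113.4 and 110.9 CPM at CT0, 117.8, 118.3 and 118.1 at CT4, 137.5, 140.3 and 131.7 at CT8, 135.0, 126.7 and 130.7 at CT12, 115.7, 102.2 and 111.9 at CT16 and 110.0, 95.0 and 103.2 at CT20. CT8 and CT12 lay above all other times, as for MCM3. The fitted peak was CT8.9 (edgeR, adjusted p = 1.1e-05), and in the retina the same sum was not called (edgeR, adjusted p = 0.0864), with means between 53.7 and 63.1 CPM. The origin recognition genes, which mark where the ring is loaded, gave no pineal call: ORC5L came nearest (edgeR, adjusted p = 0.0704, peak CT17.0), and ORC1L, ORC2L, ORC3L, ORC4 and ORC6 had adjusted p-values between 0.235 and 0.927.

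**Figure D2:**
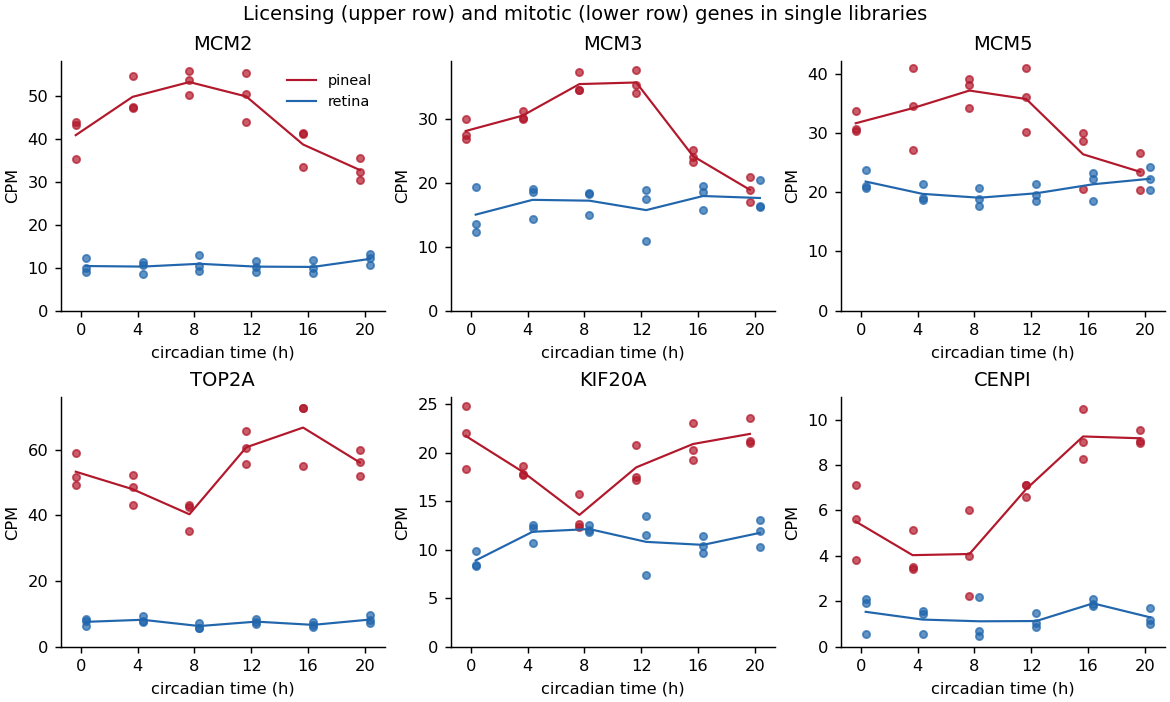
CPM of MCM2, MCM3 and MCM5 (upper row) and TOP2A, KIF20A and CENPI (lower row) against circadian time, with 1 point per library, pineal gland in red and retina in blue, and lines through the means of 3 libraries. The MCM genes are lowest at CT20 in the pineal gland, where MCM3 and MCM5 reach the retina's level, while TOP2A and KIF20A are lowest at CT8.

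Of the genes that fire origins and stabilise forks, MCM9, a helicase of DNA repair, was the 1 rhythmic row of 10 tested in the pineal gland, with 14.1 ± 0.846 CPM at CT8 and 19.6 ± 2.74 CPM at CT20 (peak CT17.9, edgeR, adjusted p = 0.00346), low when MCM2 to MCM5 were high. Its call ended when both tissues shared 1 fit (adjusted p = 0.101). CDC45, CDC7, GINS1, GINS3, MCM8 and MCM10 had no call, with adjusted p-values of 0.218 to 0.957. POLE2, a subunit of the leading-strand polymerase, was the 1 rhythmic row of 13 tested polymerase and clamp rows (7.69%, against 21.1% of all transcripts). It had 38.8, 41.5 and 43.4 CPM at CT4 and 31.3, 34.2 and 31.9 CPM at CT16 in the pineal gland, 2 groups that did not overlap (peak CT5.7 ± 0.6 h, edgeR, adjusted p = 0.00127). Its retina means lay between 30.5 and 35.4 CPM, and the difference in rhythm (edgeR, adjusted p = 0.0384) ended when any 1 of 8 libraries was left out (pineal CT4 replicate 3, CT16 replicates 1 and 3 and CT20 replicates 2 and 3, retina CT8 replicates 1 and 2 and CT20 replicate 2, adjusted p = 0.0516 to 0.0685) and without the 3 pools low in TTR (0.0676). The main row of PCNA, the sliding clamp, was not called in the pineal gland (edgeR, adjusted p = 0.0541, peak CT10.1, peak-to-trough ratio 1.14). POLA1, of the primase complex, had an adjusted p of 0.0939 and a peak at CT9.9.

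Among cyclins 1 of 11 tested rows (9.09%) was rhythmic in the pineal gland. Among cell cycle kinases and phosphatases 1 of 4 (25%) was, against 21.1% of all transcripts. CCND1, the cyclin that takes cells out of rest, had 34.9, 33.0 and 31.5 CPM at CT0, above all libraries of the other times, which ran from 20.9 to 27.7 CPM (peak CT1.2, edgeR, adjusted p = 0.0141). In the retina CCND1 was also highest at CT0, with 26.4 ± 2.46 CPM, but did not pass (edgeR, adjusted p = 0.0547). Without the 3 pools low in TTR the pineal call was lost (adjusted p = 0.0514). CDC2, an older symbol of CDK1, the kinase that drives entry into mitosis, had 18.2, 15.9 and 19.7 CPM at CT8, 26.5, 28.7 and 23.1 at CT12 and 28.2, 28.6 and 24.0 at CT16 in the pineal gland, and 24.1, 28.9 and 21.5 at CT0, 21.6, 19.6 and 24.6 at CT4 and 26.4, 24.3 and 27.0 at CT20. CT8 was the lowest time and overlapped CT4 alone. The call (edgeR, adjusted p = 0.0277, peak CT18.2) ended when any 1 of 6 libraries was left out (CT4 replicate 2, CT8 replicates 1, 2 and 3, CT16 replicates 1 and 2, adjusted p = 0.0549 to 0.0631), with both tissues in 1 fit (0.15), in limma on log2(FPKM + 0.1) without a filter (0.0555) and without the pools low in TTR (0.0522). CDK7, which activates other cyclin-dependent kinases, was not called (edgeR, adjusted p = 0.0787). After summing over transcripts, CCNB2, a mitotic cyclin, peaked at CT20.0 with 27.8 ± 1.73 CPM at CT20 and 19.2 ± 1.97 CPM at CT8 (edgeR, adjusted p = 0.00672), and CCND2 peaked at CT5.7 with 29.9 ± 1.93 CPM at CT4 and 24.2 ± 1.59 CPM at CT20 (edgeR, adjusted p = 0.021).

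The mitosis group, AURKAIP1 included, gave 5 rhythmic rows of 20 tested in the pineal gland (25%, against 21.1% of all transcripts). TOP2A (ENSGALT00000040062, chromosome 27, 4074974 to 4092007), the topoisomerase that untangles sister chromatids, had pineal values of 49.1, 59.1 and 51.7 CPM at CT0, 48.7, 43.1 and 52.2 at CT4, 35.2, 42.6 and 43.3 at CT8, 55.8, 65.8 and 60.6 at CT12, 72.6, 72.7 and 55.0 at CT16 and 56.4, 52.1 and 59.9 at CT20. CT8 was lowest and overlapped CT4 narrowly, all libraries of CT12 and CT16 lay above those of CT4 and CT8, and 1 library of CT16 lay among those of CT20. The retina values had a lowest of 5.78, a median of 7.52 and a highest of 9.57 CPM. The pineal amplitude was 0.28 ± 0.06 with a peak at CT17.2 (edgeR, adjusted p = 0.00693), and the difference in rhythm from the retina did not pass (edgeR, adjusted p = 0.085).

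KIF20A (ENSGALT00000005114, chromosome 13), a motor of the late spindle and of cleavage, had 22.1, 24.9 and 18.3 CPM at CT0, 17.8, 17.7 and 18.7 at CT4, 12.4, 12.7 and 15.8 at CT8, 17.5, 17.2 and 20.8 at CT12, 23.1, 20.4 and 19.3 at CT16 and 21.3, 23.6 and 21.0 at CT20 in the pineal gland. The values of CT8 lay below those of all other times. In the retina KIF20A was 12.1 ± 0.345 CPM at CT8 and 8.90 ± 0.883 CPM at CT0, so the tissues came closest at CT8. The pineal rhythm had an adjusted p of 0.00325 with a peak at CT20.1 and the tissue difference in rhythm one of 0.0217 (edgeR), and the difference was lost in limma on log2(FPKM + 0.1) (0.0556, and 0.0545 without a filter).

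KIF11, the motor that pushes spindle poles apart, and KIF23, a motor of the cleavage furrow, were also lowest at CT8. KIF11 had 22.4 ± 2.98 CPM at CT8 and 34.2 ± 3.004 CPM at CT20 in the pineal gland, and KIF23 had 9.99 ± 1.62 CPM at CT8 and 15.8 ± 1.90 CPM at CT16. Both calls were fragile. That of KIF11 (edgeR, adjusted p = 0.0245) ended without any 1 of CT8 replicates 1, 2 and 3 and CT20 replicate 3 (0.0512 to 0.0653), in limma (0.0602 to 0.062) and without the pools low in TTR (0.0756). That of KIF23 (edgeR, adjusted p = 0.0226) ended without CT8 replicate 1 or CT16 replicate 2 (0.0515 and 0.056), in limma (0.0711 to 0.0774) and with both tissues in 1 fit (0.568). The difference in rhythm of KIF11 between the tissues (edgeR, adjusted p = 0.0494) was lost when any 1 of 25 of the 36 libraries was left out (0.0503 to 0.0891), with the replicate block (0.0609), without a filter (0.0609), in limma (0.0685 to 0.0945) and without the pools low in TTR (0.0682). CDC14B, a phosphatase of mitotic exit, had 40.0 ± 3.33 CPM at CT0 and 28.9 ± 1.52 CPM at CT12 (edgeR, adjusted p = 0.0185), and its call ended without CT0 replicate 1 (0.0608), with both tissues in 1 fit (0.0817) and without the pools low in TTR (0.103).

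Summed over its 3 transcripts, BUB1B, a spindle checkpoint protein, was rhythmic in the pineal gland although none of its rows was called alone. It had 17.5, 22.6 and 20.3 CPM at CT0, 14.6, 15.4 and 16.0 at CT4, 10.7, 11.5 and 13.2 at CT8, 15.6, 15.7 and 16.1 at CT12, 23.1, 24.1 and 18.4 at CT16 and 22.8, 20.3 and 21.6 at CT20, and in the retina its highest value was 2.96 CPM. CT8 lay below all other times (peak CT19.6, peak-to-trough ratio 1.81, edgeR, adjusted p = 1.2e-05). MKI67, a protein of dividing cells' chromosomes, was not called (edgeR, adjusted p = 0.573), nor were AURKA (0.456), BUB1 (0.219) and CDC20 (0.166). Subunits of the anaphase-promoting complex, CDC16, CDC23, CDC26 and CDC27, had adjusted p-values of 0.165 to 0.722.

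Centromere and kinetochore genes gave 6 rhythmic rows of 27 tested in the pineal gland (22.2%, near the 21.1% of all transcripts). These 6 rows carry 4 symbols, with CENPF counted more than once. The retina gave 0 of 18 (against 6.29% of all), and 32 rows carry these names. CENPI (ENSGALT00000008077, chromosome 4, 2061546 to 2075788), which helps to place the centromeric histone, had 3.81, 7.13 and 5.61 CPM at CT0, 5.16, 3.44 and 3.50 at CT4, 6.03, 4.002 and 2.22 at CT8, 7.12, 7.12 and 6.59 at CT12, 10.5, 9.002 and 8.29 at CT16 and 8.96, 9.53 and 9.05 at CT20. The values of CT16 and CT20 lay above those of all other times, and the retina's 18 values ran from 0.481 to 2.17 CPM. Its amplitude was 0.70 ± 0.11, a 2.64-fold range (edgeR, adjusted p = 4.8e-04), and the difference in rhythm from the retina was not called (edgeR, adjusted p = 0.432). Summed over its 2 rows, CENPI had a smaller amplitude of 0.58 ± 0.06, a 2.24-fold range (edgeR, adjusted p = 1.9e-06). The summed values at CT8 lay closer together, at 6.03, 5.60 and 5.09 CPM. CENPH and CENPQ, of the same inner kinetochore network, were highest at CT16 with 12.6 ± 3.20 and 8.29 ± 1.68 CPM, and lowest at CT4 with 7.76 ± 1.09 and 4.497 ± 0.803 CPM. The call of CENPH (edgeR, adjusted p = 0.0236) ended without CT4 replicate 2, CT4 replicate 3 or CT16 replicate 1 (0.05 to 0.0832), with time as a factor (0.107), without the pools low in TTR (0.0513), with both tissues in 1 fit (0.129) and in limma without a filter (0.0529). The call of CENPQ (edgeR, adjusted p = 0.0175) ended without CT16 replicate 1 (0.0681), with time as a factor (0.079), with both tissues in 1 fit (0.577), in limma without a filter (0.0505) and after summing over transcripts (0.0536).

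CENPF, a large kinetochore protein, is the symbol of 2 Ensembl genes in the tables, with 5 transcripts on chromosome 3 and 4 on chromosome 17. Summed over the 5 transcripts of chromosome 3, CENPF had pineal values of 39.9, 42.1 and 36.2 CPM at CT0, 25.2, 28.2 and 29.3 at CT4, 21.5, 21.9 and 21.3 at CT8, 31.1, 34.8 and 34.1 at CT12, 51.3, 44.2 and 45.3 at CT16 and 48.5, 37.8 and 46.1 at CT20. CT8 lay below all other times and CT16 above all times but CT20. The fitted range was 2.08-fold with a peak at CT18.9 (edgeR, adjusted p = 4.8e-07), and the retina's values ran from 0.591 to 1.95 CPM. The 4 transcripts of chromosome 17 under the same symbol, summed, were 35.9 ± 3.32 CPM at CT0 and 29.4 ± 1.93 CPM at CT20 and were not called (edgeR, adjusted p = 0.0572).

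Of the single rows of the chromosome 3 gene, ENSGALT00000015897 had 9.92 ± 3.42 CPM at CT8 and 31.8 ± 3.64 CPM at CT16 (edgeR, adjusted p = 0.00183). ENSGALT00000038505 had 1.08 ± 0.471 CPM at CT4 and 3.17 ± 0.894 CPM at CT16 (edgeR, adjusted p = 0.0277), and its call ended without any 1 of CT4 replicates 1 and 2, CT8 replicate 1, CT16 replicates 2 and 3 and CT20 replicate 1 (0.0515 to 0.0693), with time as a factor (0.186), with both tissues in 1 fit (0.232) and without the pools low in TTR (0.0841). ENSGALT00000038507 spans the same coordinates as ENSGALT00000015897 and had 5.44 and 7.96 CPM in 2 libraries of CT8, 10.6 CPM in 1 of CT12, 0.131 CPM in 1 of CT16 and 0 in all other pineal libraries. Its call (edgeR, adjusted p = 4.4e-04, peak CT9.6) goes against that of the summed gene and ended without CT16 replicate 2 (0.0747), with DESeq2 (0.258), in limma (0.192 to 0.242) and with time as a factor (0.134), so its value is uncertain. CENPK, summed over 2 transcripts, peaked at CT10.8 with 5.09 ± 0.572 CPM at CT8 and 2.90 ± 0.568 CPM at CT0 (edgeR, adjusted p = 0.0249). In all, 29 of 99 tested genes (29.3%) were rhythmic in the pineal gland after summing, where 28.6% of all 13042 summed genes were, and 13 of the 29 were genes with several rows. That share again lies near the background.

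**Figure D3:**
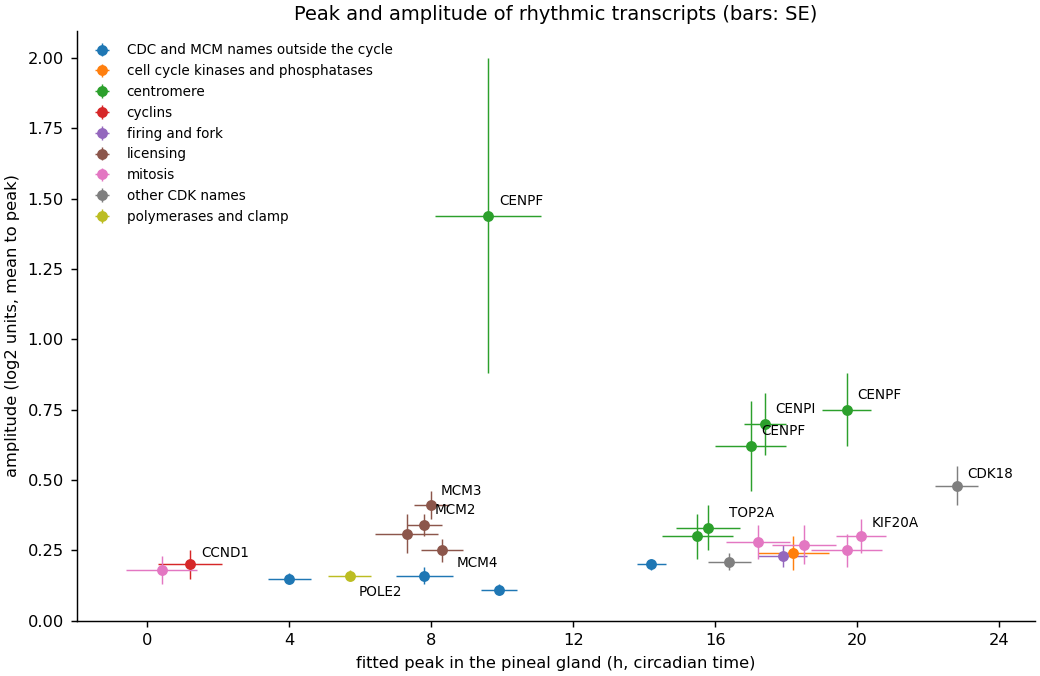
Fitted peak time (h, horizontal) and amplitude (log2 units from mean to peak, vertical) of the 25 transcripts rhythmic in the pineal gland, coloured by role, with bars for the SE. The MCM2 to MCM5 points lie between CT7.3 and CT8.3, and the mitosis and centromere points lie between CT15.5 and CT20.1 except CDC14B (CT0.4) and the uncertain CENPF transcript (CT9.6).

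The remaining rhythmic pineal rows bear names that lie outside replication and mitosis. CDC42, a GTPase of the actin cytoskeleton and cell polarity, had 511.8 ± 8.58 CPM at CT8 and 439.5 ± 28.6 CPM at CT20 in its main row (peak CT9.9, edgeR, adjusted p = 3.8e-04). CDC5L, a splicing factor, had 101.8 ± 9.39 CPM at CT12 and 82.2 ± 2.49 CPM at CT20 (peak CT7.8, edgeR, adjusted p = 0.00533). CDK19, of the Mediator complex, had 45.0 ± 2.42 CPM at CT4 and 60.2 ± 1.81 CPM at CT20 (peak CT16.4, edgeR, adjusted p = 5.2e-04). These 3 rows stayed called under every alternative run, and none of them differed in rhythm from the retina (edgeR, adjusted p = 0.146 to 0.204). CDC40, CDC42BPB and CDK18, rhythmic too, are described with the retina, and 10 of the 142 rows, CDK3 among them, passed the filter in neither tissue.

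The mean levels of markers of other cells in the pineal pools varied between times, but few rows of the lists below passed the 24 h test. The calls were CXCR4 among lymphocyte genes (edgeR, adjusted p = 9.8e-05), a PDGFRA row among fibroblast genes (9.5e-04) and a FLT1 row among endothelial genes (1.1e-04). The other rows of these lists, and all macrophage and blood cell rows, had no call, so a daily rhythm of these cells is not shown. The summed level of 8 lymphocyte genes averaged 406.6 ± 121.3 CPM at CT0, 480.0 ± 74.7 at CT4, 305.3 ± 72.4 at CT8, 406.2 ± 124.0 at CT12, 255.5 ± 72.2 at CT16 and 263.7 ± 77.9 at CT20. It was thus low at CT16 and CT20, the times when MCM2 to MCM5 were low and TOP2A, CENPI and CENPF were high, and its part in either result was not tested. Macrophage markers were likewise low at CT16 (198.9 ± 4.40 CPM) and CT20 (193.5 ± 29.4 CPM), with 239.6 ± 29.8 CPM at CT0, 243.1 ± 25.3 at CT4, 207.9 ± 16.6 at CT8 and 240.0 ± 37.4 at CT12. Fibroblast markers were highest at CT8 (4543 ± 291.8 CPM) and CT12 (4444 ± 84.7 CPM), as MCM2 to MCM5 were, and lowest at CT4 (3856 ± 531.8 CPM) and CT20 (3885 ± 609.5 CPM). The part of these markers was not tested either. Blood cell markers lay between 428.7 ± 144.0 CPM at CT4 and 724.3 ± 422.9 CPM at CT8, with wide spread, and endothelial markers lay between 634.3 ± 56.9 CPM at CT20 and 669.2 ± 45.1 CPM at CT8. In pooled tissue, fewer cells of a type and less RNA per cell cannot be told apart.

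In the retina 111 of the 142 rows passed the filter, and 3 of them (2.7%) were rhythmic, where 6.29% of all 14956 tested transcripts were. None of the 3 belongs to replication or mitosis as described above. CDC42BPB, a kinase of the actin cytoskeleton downstream of CDC42, was rhythmic in both tissues. In the pineal gland it had 344.5 ± 16.3 CPM at CT0 and 464.6 ± 14.1 CPM at CT16 (peak CT14.2, edgeR, adjusted p = 1.6e-05), and in the retina 403.2 ± 10.6 CPM at CT0 and 481.7 ± 1.75 CPM at CT12 (peak CT12.6, edgeR, adjusted p = 2.6e-04). The curves differed (edgeR, adjusted p = 0.0294), but not without pineal CT4 replicate 1, pineal CT16 replicate 1, pineal CT16 replicate 2 or retina CT16 replicate 3 (0.0522 to 0.0713). CDK18, a kinase of the PCTAIRE family, had 11.2, 11.6 and 11.6 CPM at CT0, 6.72, 5.86 and 5.80 at CT12 and 16.1, 10.8 and 11.6 at CT20 in the pineal gland (peak CT22.8, edgeR, adjusted p = 2.5e-04). In the retina it had 34.4, 33.2 and 36.7 CPM at CT0, 22.5, 23.3 and 26.5 at CT8 and 33.9, 36.1 and 31.0 at CT20 (peak CT21.7, edgeR, adjusted p = 0.00298). In both tissues CDK18 was high around CT20 and CT0, and the test of a difference gave an adjusted p of 0.0559 (edgeR). CDK17, of the same family, had 201.2 ± 11.6 CPM at CT0 and 240.6 ± 14.8 CPM at CT12 in the retina (edgeR, adjusted p = 0.00681), and this call was lost with time as a factor (0.0754).

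Of the members tested over all 36 libraries, 131 rows, 11 (8.4%) differed in their 24 h curve between the pineal gland and the retina, where 12.1% of all 16831 transcripts did. Besides MCM2 to MCM5, POLE2, KIF11, KIF20A, CDC42BPB and the uncertain CENPF row, these were CDC40 and CENPA. CDC40, a splicing factor, had 121.4 ± 5.96 CPM at CT4 and 97.4 ± 4.66 CPM at CT16 in the pineal gland and 95.9 ± 4.88 and 96.4 ± 2.07 CPM at the same times in the retina (difference, edgeR, adjusted p = 7.8e-04). CENPA, the histone that marks the centromere, was called in neither tissue alone (edgeR, adjusted p = 0.236 in the pineal gland and 0.129 in the retina), but its shallow curves ran opposite to each other. It had 345.7 ± 11.7 CPM at CT0 and 325.0 ± 5.77 CPM at CT16 in the pineal gland, against 222.9 ± 2.04 and 241.6 ± 19.96 CPM at these times in the retina (difference, edgeR, adjusted p = 0.00858). TOP2A, CDC2, KIF23, CENPH, CENPI, CENPQ, CCND1 and MCM9 were rhythmic in the pineal gland but passed no test of a difference, so a different curve in the retina is not shown for them. KIF23 and the CENPF rows of chromosome 3 were too low in the retina to pass the filter there.

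The tissues also differed in level. Over 6 times, 73 of the 131 tested rows (55.7%) were higher in the pineal gland, where 43.2% of all 16831 transcripts were, and 30 (22.9%) were lower, where 39.5% were. The median difference (pineal minus retina, log2) was 0.51 over the members and 0.04 over all tested transcripts. All 18 pineal libraries lay above all 18 retina libraries in 33 of the 142 rows (23.2%), and in 17% of the rows of the whole table that had a count. The reverse held for 16 member rows, and for 15.6% of the whole table. Because 21 rows passed the filter through the pineal gland alone, and 2 through the retina alone, these counts lean towards differences. The rows are transcripts, not independent genes. The 32 centromere rows carry 15 symbols, and the 23 mitosis rows, AURKAIP1 included, carry 17. By role, 13 of 20 tested mitosis rows (65%), 20 of 28 centromere rows (71.4%) and 8 of 11 cyclin rows (72.7%) were higher in the pineal gland. So were 9 of 13 licensing rows (69.2%) and 6 of 10 firing and fork rows (60%), against 43.2% of all transcripts. The 21 rows that passed through the pineal gland alone were 11 centromere, 4 mitosis, 4 firing and fork, 1 cyclin and 1 other CDK rows. Counts of the centromere, mitosis and firing and fork rows therefore lean more towards the pineal gland than those of the licensing rows, with 0. Of the polymerase and clamp rows, 6 of 13 were higher and 3 lower. Among CDC and MCM names outside the cycle 5 of 15 were higher and 5 lower, among cell cycle kinases and phosphatases 1 of 4 was higher and 2 were lower, and among other CDK names 5 of 17 were higher and 11 lower.

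**Figure D4:**
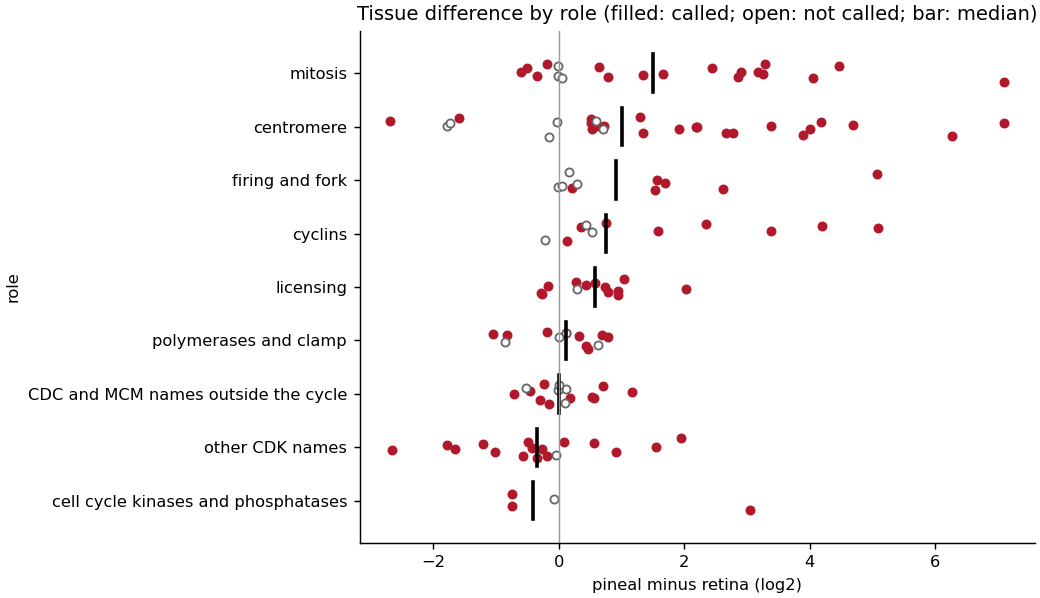
Difference in level between the tissues (pineal minus retina, log2, horizontal) for each of the 131 tested transcripts by role (vertical); filled points had an adjusted p under 0.05, open points did not, and bars mark medians. The medians of the mitosis (1.5) and centromere (1.0) rows lie right of 0, and those of the cell cycle kinases and phosphatases (-0.41, 4 rows) and the other CDK names (-0.35) lie left of it. The filter on low counts was passed through the pineal gland alone by 11 centromere and 4 mitosis rows, which leans these medians to the right.

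The largest differences were those of mitotic and S phase genes with very few retina counts. CENPF (chromosome 3, summed) had a lowest, median and highest value of 21.3, 35.5 and 51.3 CPM in the pineal gland, against 0.591, 1.08 and 1.95 CPM in the retina, a 31.6-fold difference (log2 4.98 ± 0.08, edgeR, adjusted p = 3.6e-31). CCNA1, a cyclin known for its role in germ cells, had 14.5, 23.7 and 30.7 CPM in the pineal gland, against 0.139, 0.703 and 1.25 CPM in the retina (34.1-fold, edgeR, adjusted p = 8.7e-23). Neither gene overlapped between the tissues. The chromosome 17 gene under the CENPF symbol, summed, was 1.46-fold higher in the pineal gland (edgeR, adjusted p = 1.0e-13). CCNA2, summed, was 1.35-fold higher there (edgeR, adjusted p = 9.1e-09), and its ranges overlapped. CDC45, which joins MCM and GINS in the active helicase, had 3.56, 7.06 and 9.19 CPM in the pineal gland and 0, 0.164 and 1.18 CPM in the retina (33.5-fold, edgeR, adjusted p = 1.7e-14). CDC20, the activator of the anaphase-promoting complex, was 22.2-fold higher in the pineal gland, CENPE, a kinetochore motor, 18.1-fold and KIF23 row ENSGALT00000013141 16.6-fold. These fitted ratios rest on 26 CDC45, 54 CDC20, 85 CENPE and 95 KIF23 counts over the 18 retina libraries. Summed over its 2 rows, KIF23 was 12.7-fold higher in the pineal gland (edgeR, adjusted p = 4.4e-23).

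BUB1 was 9.5-fold higher in the pineal gland, MKI67 9.03-fold, CDC2 8.29-fold and TOP2A 7.2-fold, all without overlap. Summed over their transcripts, BUB1B was 11.2-fold, CCNB2 7.82-fold and CCND2, a cyclin of early G1, 7.36-fold higher in the pineal gland. The split between rows mattered for CCNB2: one row was 18.4-fold higher in the pineal gland and the other did not differ detectably (log2 -0.21 ± 0.49, edgeR, adjusted p = 0.715). The call of BUB1B row ENSGALT00000007725 ended without pineal CT20 replicate 2 (edgeR, adjusted p = 1). A value of exactly 1 can stand for a failed fit of a low row, so dependence on that library is not shown. Licensing genes differed less: MCM2 was 4.08-fold higher in the pineal gland (log2 2.03 ± 0.06), MCM6 2.03-fold when summed, MCM4 1.92-fold, MCM3 1.67-fold and MCM5 1.5-fold. ORC4 and ORC5L were lower in the pineal gland (log2 -0.28 and -0.27), but the call of ORC5L was lost in limma on FPKM (0.0685 to 0.0694).

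The 16 rows lower in the pineal gland without overlap came from several groups: 6 carry other CDK names, 3 are CDC or MCM names outside the cycle, 2 each are cell cycle kinases or phosphatases, mitosis and polymerase or clamp rows, and 1 is a centromere row. CDK14 had 9.12, 11.9 and 17.3 CPM in the pineal gland (lowest, median, highest), against 65.1, 76.8 and 85.4 CPM in the retina (6.28-fold lower in the pineal gland, log2 -2.65 ± 0.06, edgeR, adjusted p = 7.8e-26). CDK18 was 3.41-fold and CDK17 3.15-fold lower in the pineal gland, CDK5RAP2, a centrosome protein, 2.31-fold, and CDK8, of the Mediator complex, 2.02-fold. Among replication and cell cycle proteins proper, the clamp loader subunits RFC1 and RFC2 were 2.06-fold and 1.76-fold lower in the pineal gland, and the G1 kinase CDK6 and the phosphatase CDC25A 1.68-fold and 1.67-fold. CENPV was 3-fold lower in the pineal gland, with 6.13 to 11.2 CPM there and 21.4 to 28.8 CPM in the retina. Of the mitosis group, the phosphatase CDC14A and the anaphase-promoting complex subunit CDC23 were 1.52-fold and 1.42-fold lower in the pineal gland.

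**Figure D5:**
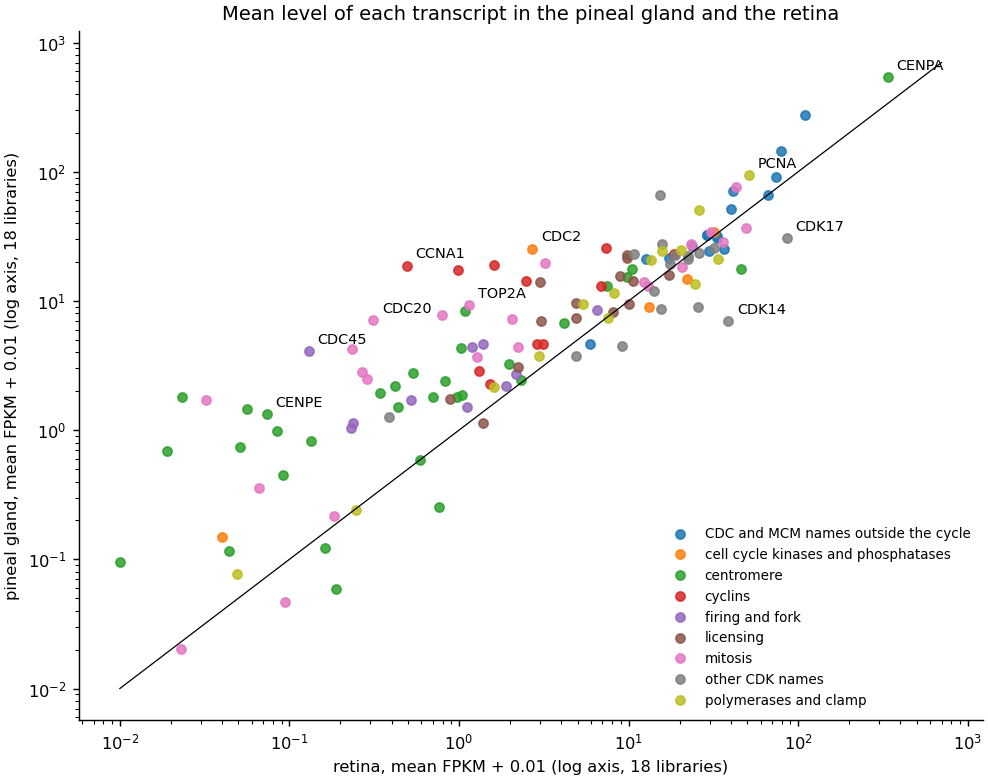
Mean FPKM + 0.01 of each of the 142 transcripts over 18 pineal libraries (vertical) and 18 retina libraries (horizontal), both on log axes, coloured by role, with a line of equal level. CDC45, CDC20, CCNA1 and CENPE lie far above the line, CDK14 and CDK17 below it, and CENPA is highest in both tissues.

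Compared between genes, levels are given in FPKM (fragments scaled by transcript length and library size). CENPA was the highest member in both tissues, with a level of 543 ± 26.7 FPKM in the pineal gland and 337 ± 11.8 FPKM in the retina (SD, n = 18 libraries each). No other centromere row exceeded 17.7 FPKM in the pineal gland or 45.9 FPKM in the retina, the values of CENPV. The main row of the GTPase CDC42 came next, at 274.5 ± 16.7 FPKM in the pineal gland and 109.2 ± 5.995 FPKM in the retina, and PCNA stood at 93.7 ± 6.85 FPKM in the pineal gland and 51.2 ± 2.52 FPKM in the retina. CDC42SE2 and CDC42EP4, effectors of CDC42, had 91.0 and 70.7 FPKM in the pineal gland and 73.8 and 41.1 FPKM in the retina. CDC26, of the anaphase-promoting complex, had 76.4 FPKM in the pineal gland and 43.2 FPKM in the retina. CDK2AP1, an inhibitor of CDK2, had 66.0 FPKM in the pineal gland and 15.3 FPKM in the retina, and the phosphatase CDC14A 36.4 FPKM in the pineal gland and 49.4 FPKM in the retina. Levels of the division genes proper were lower. TOP2A stood at 9.31 FPKM in the pineal gland and 1.14 FPKM in the retina, CDC2 at 25.4 FPKM in the pineal gland and 2.69 FPKM in the retina, and MKI67 at 7.78 FPKM in the pineal gland and 0.779 FPKM in the retina. Summed over its rows in each library, the licensing group had a median level of 154.4 FPKM in the pineal gland and 94.2 FPKM in the retina. The cyclin group had 142.7 FPKM in the pineal gland and 47.0 FPKM in the retina. The ranges of both sums over the 18 libraries did not overlap between the tissues. Nor did those of any other role but the cell cycle kinases and phosphatases, so this is not particular to division genes. The CDC and MCM names outside the cycle were also higher in the pineal gland (median 916.1 FPKM, against 638.2 in the retina). The other CDK names were lower there (325.3 FPKM, against 375.9). The FPKM were used as deposited, without the TMM scaling of the CPM values. On them the tissue calls of CDC42BPB, CDK13, CDC16, ORC2L and RFC3 were lost (limma on log2 FPKM, adjusted p = 0.555 to 0.78). Narrow gaps between the FPKM sums may therefore depend on the scaling.

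Markers of immune, connective tissue, blood and vessel cells differed between the tissues along with these genes. The summed level of 8 lymphocyte genes had a lowest, median and highest value of 177.9, 334.4 and 544.6 CPM in the pineal gland, against 29.1, 35.6 and 40.5 CPM in the retina, where CD8A was at 0. Fibroblast markers (5 genes) were at 3249, 4233 and 4804 CPM in the pineal gland and 23.8, 34.6 and 49.9 CPM in the retina, and macrophage markers (4 genes) at 161.3, 214.5 and 282.8 CPM in the pineal gland and 44.3, 55.8 and 81.0 CPM in the retina. Blood cell markers (3 genes) were at 274.6, 512.7 and 1179 CPM in the pineal gland and 18.4, 34.9 and 154.9 CPM in the retina, and endothelial markers (7 genes) at 570.5, 642.3 and 744.6 CPM in the pineal gland and 297.6, 341.7 and 364.2 CPM in the retina. None of these pairs of summed ranges overlapped. Of the endothelial genes KDR alone ran the other way. Its main row had a mean of 88.2 CPM in the pineal gland and 294.1 CPM in the retina, most of the retina's endothelial sum. CDH5 (166-fold), TIE1 (77.4-fold) and TEK (42.6-fold) were much higher in the pineal gland. CXCR4, at a mean of 30.3 CPM, made up most of the retina's lymphocyte sum. Müller glia markers (5 genes), summed, were higher in the retina. They were at 2127, 2329 and 2433 CPM in the pineal gland and 5108, 5607 and 6153 CPM in the retina. The genes did not all go this way. GLUL (14.1-fold) and the main SLC1A3 row (10.9-fold) were higher in the retina. SOX9 (2.89-fold and 2.37-fold in its main rows) and the main VIM row (1.73-fold) were higher in the pineal gland. RLBP1 did not differ detectably (edgeR, adjusted p = 0.576). The part of these cells in the differences was not tested.

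A second list held 95 genes of the cell cycle that the names above do not take, such as E2F factors, nucleotide synthesis enzymes, condensins and spindle proteins, and 82 of its symbols have rows here, 127 in all. In the pineal gland 26 of 113 tested rows (23%) were rhythmic, against 21.1% of all transcripts, and in the retina 3 of 88 (3.41%), against 6.29%. Of 115 rows, 10 (8.7%) differed in rhythm between the tissues, against 12.1% of all. PLK2, a kinase of centriole duplication and of nerve cell responses, had the smallest adjusted p in the pineal gland, with 107.0 ± 8.25 CPM at CT0 and 401.8 ± 38.5 CPM at CT12 (edgeR, adjusted p = 1.3e-09), while its retina means lay between 115.5 and 134.4 CPM (difference, edgeR, adjusted p = 1.3e-11). RRM2, which makes deoxynucleotides for DNA synthesis, had 12.6 ± 1.42 CPM at CT0, 15.6 ± 2.61 at CT4, 20.9 ± 1.52 at CT8, 24.9 ± 3.79 at CT12, 19.2 ± 0.693 at CT16 and 13.4 ± 0.742 at CT20 in the pineal gland. Its fitted peak, CT11.3, came after those of MCM2 to MCM5 and before those of TOP2A and KIF20A (edgeR, adjusted p = 4.4e-06), and no retina library exceeded 0.623 CPM.

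Of the 26 rhythmic pineal rows of that list, 11 had their fitted peak nearest CT20, 6 nearest CT16, 4 nearest CT8, 3 nearest CT12 and 1 each nearest CT0 and CT4. Of all rhythmic pineal transcripts 10.9% had theirs nearest CT20, 25.4% nearest CT16 and 7.72% nearest CT8. A further 20.8% lay nearest CT12, 13.6% nearest CT0 and 21.6% nearest CT4. ECT2, of cleavage, peaked at CT16.1 (edgeR, adjusted p = 1.9e-04), the spindle protein NUSAP1 at CT18.4 (3.8e-04) and NUF2 at CT21.0 (1.6e-04). SPC25, a kinetochore protein of the same complex as NUF2, had its peak early, and its level was 30.8 ± 4.01 CPM at CT8 but 22.4 ± 0.360 CPM at CT20 (peak CT7.0, edgeR, adjusted p = 0.00717). NUF2, a kinetochore protein, had 7.13 ± 1.12 CPM at CT8 and 20.2 ± 1.47 CPM at CT0. CCNG1, a cyclin induced by p53, peaked at CT6.2 (edgeR, adjusted p = 9.5e-04). By level, 80 of 115 tested rows of the list (69.6%) were higher in the pineal gland, against 43.2% of all transcripts, and 19 (16.5%) lower, against 39.5%. Of the list's rows, 27 passed the filter through the pineal gland alone and 2 through the retina alone, which leans these counts towards differences. RRM2 was 72.5-fold higher in the pineal gland, and the condensin subunit SMC2 60.9-fold in its most counted row. KIF2C, a kinesin that takes microtubules apart at the centromere, ran against this. It had 5.54, 7.80 and 11.1 CPM in the pineal gland (lowest, median, highest), against 47.5, 73.0 and 94.1 CPM in the retina, 8.78-fold lower in the pineal gland (edgeR, adjusted p = 9.5e-29). KIF2C also had the smallest adjusted p for rhythm among these genes in the retina, with 94.1, 93.3 and 84.1 CPM at CT0, 77.9, 86.0 and 88.4 at CT4, 58.0, 60.0 and 67.2 at CT8, 47.5, 53.2 and 50.6 at CT12, 68.2, 65.9 and 67.4 at CT16 and 82.3, 84.9 and 81.0 at CT20 (edgeR, adjusted p = 1.0e-06). CT12 lay below all other times, and the pineal curve of KIF2C (edgeR, adjusted p = 0.0463) differed from it (edgeR, adjusted p = 0.00183). The other retina calls of the list were TFDP2, a partner of E2F factors (edgeR, adjusted p = 0.0168), and NCAPG, a condensin subunit (edgeR, adjusted p = 0.0434), neither of which was called in the pineal gland (edgeR, adjusted p = 0.174 and 0.262). NCAPD2, a condensin subunit, and TYMS, the thymidylate synthase, were also lower in the pineal gland, by 4.88-fold (the more counted row in the retina) and 2.52-fold.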

How the data were processed

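RNA of 18 pineal and 18 retina libraries was sequenced. TRIzol and an RNeasy kit were used for extraction and standard Illumina steps for the libraries, per the labels' protocols. Trimmomatic, TopHat and Cufflinks are listed in the submitters' processing notes, and no genome build is given in the sources used here. The authors deposited estimated counts per Ensembl transcript, 68.1% of them whole (58.7% for the members), and FPKM values, which divide by length and library size. The authors' split of reads between transcripts affects single rows.

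Counts were rounded and fitted with edgeR 4.0.16 (R 4.3.3), using TMM scaling, filterByExpr by time and quasi-likelihood F tests. Rhythm was a 24 h cosine and sine per tissue, its difference the interaction with tissue over 36 libraries, and level the mean of 6 times in each tissue. Benjamini-Hochberg adjustment ran over all tested transcripts. Amplitude and peak come from least squares on log2 CPM (prior count 2). Alternatives used limma 3.58.1 on log2(FPKM + 0.1 or + 1), DESeq2 1.42.0, other scaling and filters, gene sums, a replicate block and left-out libraries. The fits were tested on simulated data. Figures were drawn with matplotlib 3.10.9 (Python 3.11.15).

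The members and lists were chosen with earlier results of these data known. Named are members called in any rhythm test, the 10 highest FPKM levels per tissue, the 10 largest differences each way without overlap, and of the other cell cycle genes the 6 smallest rhythm p per tissue and the 6 largest differences each way. Further members named beside these, and the genes summed over rows, were chosen after their values were seen. Replicates of a group differed by more than sampling noise in all 36 pairs (chi-square per degree of freedom 4.64 to 29.995). Promoter motifs were not analysed here.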

Additional observations from a re-analysis of the deposited data

Results flagged for a closer look

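The 24 h curves of 11 transcripts differed between the pineal gland and the retina, tested as the interaction of tissue and curve in edgeR over 36 libraries. The adjusted p was 0.00301 for MCM2, 0.0126 for MCM3, 0.00713 for MCM4 and 1.0e-03 for MCM5, subunits of the replicative helicase whose pineal curves peaked between CT7.3 and CT8.3. It was 0.0384 for POLE2, 0.0494 for KIF11 and 0.0217 for KIF20A. It was 7.8e-04 for the splicing factor CDC40, 0.0294 for the kinase CDC42BPB, 0.00858 for the centromeric histone CENPA, which was called in neither tissue alone, and 6.1e-04 for the CENPF transcript ENSGALT00000038507, which was above 0 in few pineal libraries. The CENPF difference was lost in limma on log2(FPKM + 0.1) without a filter (adjusted p = 0.359), and the filtered limma runs did not test it.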

How the results depend on the processing

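Of 25 pineal rhythm calls 15 held under every alternative and left-out library, of 3 retina calls 2, of 11 differences in rhythm 6 and of 103 tissue differences 91. Leaving out 1 library at a time gave 22 to 27 pineal calls, 3 to 4 retina calls, 8 to 12 differences, 72 to 76 rows higher and 30 to 31 lower in the pineal gland. Over the named members 6811 of 6975 values stayed on their side of the threshold, 103 lost and 57 gained a call, and 4 turned. A turn was a changed sign of the tissue difference or a peak shifted by over 6 h, counted for called results only. For differences in rhythm only the call was compared, and for the DESeq2 test the peak was that of the main fit. With DESeq2, 5 rows instead of 3 were rhythmic in the retina. The CENPF transcript ENSGALT00000038507 turned to the phase of its gene when counts were summed (amplitude 0.527). The small pineal deficit of CDC42BPB turned in limma on log2 FPKM (0.00618 with a pseudocount of 0.1, with and without a filter, and 0.00615 with 1), with no call. Gene sums add reads that single rows split, and the cause of the other changes was not tested.

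Replicate numbers were not shown to pair the samples. Deviations of libraries with the same number correlated at -0.163 to 0.472 in the pineal gland and -0.0865 to 0.0953 in the retina. Between the tissues at the same time they correlated at -0.0949 to 0.0921. With the number as a replicate block, 25 pineal, 4 retina and 10 difference calls were made, and 73 rows were higher and 31 lower in the pineal gland; the difference call of KIF11 was lost (0.0609). Whether each library correlates best with its own number was not examined. Rows under about 1 CPM, as many division genes in the retina, rest on few counts, which limits the folds printed for them, and a single cycle with 6 times limits the peaks.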
